A study of Homo sapiens with 12 samples.

Results

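TFK1, an established human cholangiocarcinoma (bile duct cancer) line, was exposed to radiation, to nab-paclitaxel or to both, and the design lets each gene be asked whether its change under both equals the sum of its changes under each. The 4 groups were the combination (nab-paclitaxel at 1.62 ng/ml with 6 Gy), radiation alone (6 Gy), nab-paclitaxel alone (1.62 ng/ml) and a blank control. Each had 3 biological replicates and messenger RNA was taken at 24 h. All 12 libraries come from 1 line of wild-type label, 1 dose of each agent and 1 time, so nothing here speaks of other doses or times. The 13609 of 58735 genes averaging 1 FPKM or more (fragments scaled to transcript length and library depth) over the libraries were analysed, and no measured effect was used to choose them. Libraries held 14840283 to 17992242 fragments.

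Ionising radiation breaks DNA, and cells answer through p53, which raises the cell cycle inhibitor p21 (CDKN1A) and lowers genes of replication and mitosis. Paclitaxel binds beta-tubulin, stabilises microtubules and holds cells in mitosis, and nab-paclitaxel is its albumin-bound form. In a common definition of additivity, the fold changes of both treatments multiply, which is a sum on a log scale. Values are described here only as below or above that sum. For a gene that falls, a value below the sum is a larger joint fall than the sum predicts.

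The quantity followed below is observed minus sum: the log2 change of combination against control, minus the radiation change and the nab-paclitaxel change, all on log2(FPKM + 1) and fitted with limma over the 12 libraries. Values after ± are standard errors of such log2 values unless marked otherwise. The expected FPKM of a gene is the level that the sum predicts, and its observed FPKM is the back-transformed mean of the 3 combination libraries. A gene is said to rise or fall only where limma's Benjamini-Hochberg adjusted p was under 0.05. The average radiation effect is the mean of radiation against control and combination against nab-paclitaxel, and the average nab-paclitaxel effect is its counterpart. In this balanced design neither average would share noise with observed minus sum if all libraries varied equally and independently. That holds only in part: the SD of a library's deviations ran from 0.139 to 0.262, and some libraries deviated together. An effect of 1 agent against control shares the control libraries with observed minus sum in any case.

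The line expressed the biliary and epithelial genes KRT8, KRT18, KRT19, SOX9 and EPCAM at means of 306, 237, 419, 86.9 and 107 FPKM. The biliary keratin KRT7 was at 0.533 FPKM, near 0. Of markers of other cell types, 1 of 19 for macrophages, 5 of 15 for fibroblasts and 0 of 15 for lymphocytes and endothelium reached a mean of 1 FPKM. The summed macrophage list ran from 5.36 to 5.64 FPKM in the combination, 5.23 to 6.52 in radiation, 2.99 to 3.53 in nab-paclitaxel and 3.26 to 3.77 in control. Its 1 member above a mean of 1 FPKM was ITGAX (1.90 FPKM), with the defining markers CD14 and CD163 at 0.305 and 0.0111 FPKM and the pan-leukocyte marker PTPRC at 0.0152 FPKM. The summed biliary list ran from 1489 to 1842 FPKM in the combination, 1254 to 1329.7 in radiation, 1330.1 to 1489 in nab-paclitaxel and 878 to 1065 in control. The part of these lists in the results was not tested. Combination 2, nab-paclitaxel 1 and control 2 stood apart from their groups and deviated alike. Across genes, which are not independent, r was 0.543 between combination 2 and control 2, 0.463 between nab-paclitaxel 1 and control 2, and 0.332 between combination 2 and nab-paclitaxel 1. The labels name no batch. Counts of calls and list medians that these libraries move are given with and without them. Their SDs of deviations, 0.197, 0.262 and 0.251 in the order named, were the 3 largest. Smaller standard errors and larger counts without them therefore follow in part from how they were chosen.

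No gene's departure from the sum passed the threshold after adjustment over all genes, although some intervals of single genes leave out 0. By limma 0 of 13609 genes had an observed minus sum past the threshold (0% in either direction, smallest adjusted p = 0.989), and limma's voom on recovered fragments also gave 0. At an unadjusted p under 0.05 there were 443 genes (3.26% of those tested), 187 above the sum (1.37%) and 256 below it (1.88%). Evenly spread p-values would put 680 genes under 0.05, and 843 genes had a p from 0.95 to 1. The p-values of observed minus sum thus ran high, and the reason was not tested. For this the 0 calls alone do not show that the effects add. The same fit called 3111 genes (22.9%) for combination against control, 1666 higher (12.2%) and 1445 lower (10.6%), or 1964 without combination 3 and 5049 without the 3 libraries that stood apart. It called 1954 (14.4%) for the average radiation effect, 810 higher (5.95%) and 1144 lower (8.41%), or 3878 without those 3. It called 3523 (25.9%) for the average nab-paclitaxel effect, 2110 higher (15.5%) and 1413 lower (10.4%). Without those 3 libraries it was 5194. Against control alone, the fit called 807 genes (5.93%) for radiation and 1200 (8.82%) for nab-paclitaxel. These counts were 2947 for radiation and 1836 for nab-paclitaxel without the 3 libraries, so that their order turned, and 531 for radiation and 701 for nab-paclitaxel with replicate number as a block. The split into higher and lower calls depended on scaling. Of the nab-paclitaxel calls 59.9% were higher, against 49.6% with median-of-ratios size factors and 45.7% with voom, and of the radiation calls 41.5% were higher, against 58.1% with voom. In bulk RNA, fewer cells of a kind and less RNA per cell cannot be told apart.

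**Figure D1:**
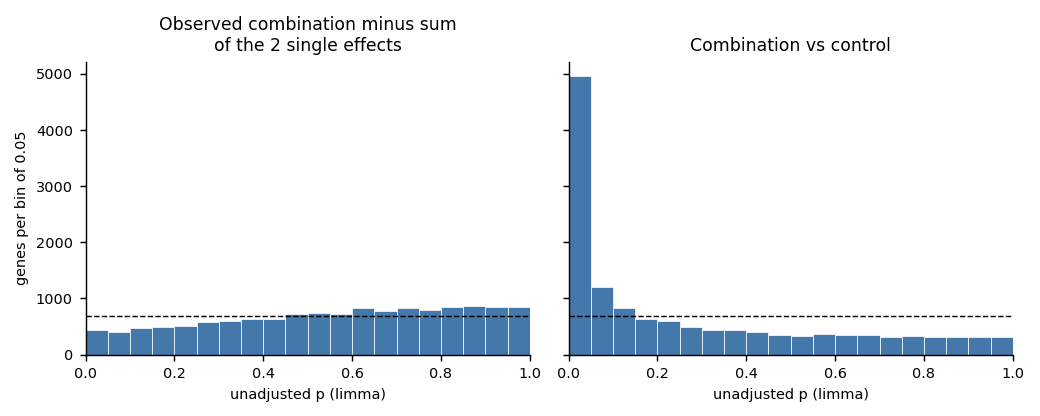
Unadjusted limma p-values of 13609 genes in bins of 0.05, for observed minus sum (left) and for combination against control (right), with a dashed line at the 680 genes per bin that a flat distribution gives. The lowest bin holds 443 genes on the left and 4969 on the right.

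How far each gene could have departed unseen depends on its interval. The median standard error of observed minus sum was 0.178, against 0.126 for combination against control, and the median 95% interval reached 0.389 to either side. The interval lay wholly within 0.5 of the sum for 6660 genes (48.9%) and wholly within 1 for 12429 (91.3%). Of the 3111 genes called for combination against control, 1835 (59.0%) had an interval within 0.5. A gene of median error would have needed a departure of 1.47 to be called on its own. With the 3 libraries that stood apart left out, the median standard error was 0.125 and 1345 genes (9.88%) reached an unadjusted p under 0.05, 712 above and 633 below, but 0 were called (smallest adjusted p = 0.141). That fit has 5 residual degrees of freedom, and leaving out the most deviating libraries by itself narrows the spread.

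The cell cycle inhibitor CDKN1A (chr6:36676460-36687339, hg38) had the largest change under the combination in the p53 list used here, which does not hold SFN. It had 341, 322 and 350.0 FPKM in the combination, 196, 205 and 198 FPKM in radiation, 199, 204 and 185 FPKM in nab-paclitaxel and 122, 108 and 119.8 FPKM in control. The 3 combination libraries lay above all others, and both single treatments lay above all controls. Radiation raised it (0.77 ± 0.08, adjusted p = 4.89e-04) and nab-paclitaxel raised it (0.74 ± 0.08, adjusted p = 8.21e-04). The combination reached 338 FPKM where 335 FPKM was expected, a difference of 0.01 ± 0.11 with a 95% interval of -0.23 to 0.25. ISG15, a ubiquitin-like protein induced by interferon (chr1:1001138-1014540), had 190.0, 154 and 167 FPKM in the combination, 79.9, 88.9 and 79.4 FPKM in radiation, 116, 113 and 86.5 FPKM in nab-paclitaxel and 59.3, 41.9 and 52.9 FPKM in control. Over all 12 libraries it too met its expectation (169.6 FPKM observed and 169 FPKM expected, a difference of 0.01 ± 0.21, interval -0.44 to 0.46). Without the 3 libraries that stood apart the differences were 0.11 ± 0.08 for CDKN1A and 0.29 ± 0.17 for ISG15.

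Among genes whose highest group mean was at least 2 FPKM, the 5 largest rises under the combination were KRTAP2-3, SFN, CPA4, ANGPTL4 and CYP24A1, and each had a value below its sum. SFN, which encodes the checkpoint protein 14-3-3 sigma, had 106, 74.9 and 92.3 FPKM in the combination, 35.5, 36.3 and 32.4 FPKM in radiation, 58.7, 70.8 and 54.8 FPKM in nab-paclitaxel and 23.1, 16.2 and 22.6 FPKM in control. Its groups did not overlap between combination and control (2.09 ± 0.16, adjusted p = 1.95e-05), and it was at 90.2 FPKM observed and 103 FPKM expected, a difference of -0.19 ± 0.22. ANGPTL4, a secreted inhibitor of lipoprotein lipase, was at 13.8 FPKM observed and 17.7 FPKM expected, a difference of -0.33 ± 0.25. The vitamin D hydroxylase CYP24A1 was at 107 FPKM observed and 125 FPKM expected, a difference of -0.22 ± 0.11. None of these departures passed the threshold. Leaving out the 3 libraries that stood apart gave 0.08 ± 0.16 for SFN, -0.04 ± 0.15 for ANGPTL4 and -0.30 ± 0.09 for CYP24A1.

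CPA4, a carboxypeptidase (chr7:130293134-130324180), rose mainly with radiation. It had 14.6, 13.4 and 13.4 FPKM in the combination, 13.2, 13.5 and 12.7 FPKM in radiation, 5.31, 4.57 and 4.24 FPKM in nab-paclitaxel and 3.14, 2.27 and 2.41 FPKM in control. The combination libraries overlapped the radiation libraries and lay above all nab-paclitaxel and control libraries. Radiation alone raised it by 1.98 ± 0.10, adjusted p = 5.77e-06, nab-paclitaxel alone by 0.67 ± 0.10, adjusted p = 0.00580, and the combination by 2.04 ± 0.10, adjusted p = 8.04e-07. It was at 13.8 FPKM observed and 21.4 FPKM expected, a difference of -0.60 ± 0.14 (unadjusted p = 0.00143), and at -0.44 ± 0.13 without the 3 libraries.

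The 5 largest falls under the combination were small or non-coding RNAs at low level: RF00157, PDIA3P2, RNU7-20P, MIR6746 and RNU6-1191P. RF00157, a small nucleolar RNA, was listed at 0 in all 3 combination libraries and at 4.96, 13.7 and 7.83 FPKM in control. Their standard errors on observed minus sum ran from 0.28 to 0.92. Among protein-coding genes that fell, the cystine transporter SLC7A11 had 13.8, 17.7 and 10.7 FPKM in the combination, 28.0, 25.4 and 27.6 FPKM in radiation, 27.3, 21.0 and 28.4 FPKM in nab-paclitaxel and 39.4, 58.9 and 42.6 FPKM in control. Every combination library lay below every other library. It was at 13.8 FPKM observed and 14.6 FPKM expected, a difference of -0.07 ± 0.26. The replication licensing factor CDT1 fell with radiation alone (-1.03 ± 0.11, adjusted p = 5.64e-04) and was at 11.8 FPKM observed and 12.5 FPKM expected, a difference of -0.08 ± 0.15.

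Across genes grouped by the size of their average effect, observed and summed changes stayed close. For the 223 genes with an average radiation effect of 0.5 or more, the median observed change was 0.73 and the median sum 0.82, with a median difference of -0.08. For the 360 genes with an average radiation effect of -0.5 or less these medians were -0.69, -0.69 and 0.02. For the 296 genes with an average nab-paclitaxel effect of 0.5 or more they were 0.68, 0.68 and 0.03, and for the 566 at -0.5 or less they were -0.70, -0.79 and 0.05. The mean difference over the genes of each set was -0.07 ± 0.08, 0.00 ± 0.06, 0.01 ± 0.07 and 0.04 ± 0.13 in the same order, each smaller than its standard error over libraries. Leaving out 1 library moved these medians by as much as their size: the first was -0.16 without control 3, the second -0.05 without nab-paclitaxel 3, the third -0.05 without control 1 and the last -0.01 without combination 2. A library left out also unbalances the groups, so that both averages then share noise with the difference. The part of this in these moves was not tested. In the 95 protein-coding genes of the first set the median was -0.09, 63 lay below 0 and the mean was -0.12 ± 0.07, larger than its standard error.

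The median difference was lower in genes with a larger average radiation effect. It was 0.00 in the 10775 genes with an average effect between -0.25 and 0.25, -0.05 in the 972 between 0.25 and 0.5, -0.07 in the 209 between 0.5 and 1, and -0.19 in the 14 above 1, a bin of few genes. The share of genes at an unadjusted p under 0.05 was 2.46%, 7.92%, 11.5% and 21.4% (3 of 14) in these bins. It was 4.30%, 5.46% and 0% in the radiation bins at -0.5 to -0.25, -1 to -0.5 and below -1. In nab-paclitaxel bins of the same edges it was 3.34%, 4.81% and 40% (2 of 5) for positive effects and 4.17%, 6.21% and 17.6% for negative ones. For nab-paclitaxel the medians at 0.25 to 0.5, 0.5 to 1 and above 1 were -0.01, 0.03 and 0.01 (1944, 291 and 5 genes). The same genes grouped by their effect alone against control gave medians of -0.14, -0.33 and -0.70 for radiation and of -0.08, -0.15 and -0.82 for nab-paclitaxel. Those bins share the control libraries with the difference, and their medians cannot be told apart from that shared noise.

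**Figure D2:**
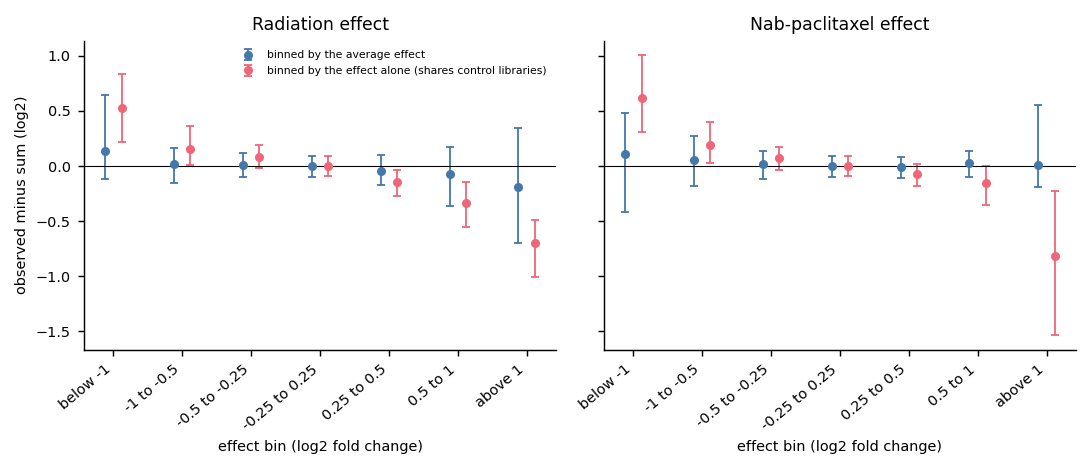
Median observed minus sum (points) with the 25th to 75th percentile (bars) on the log2 scale, for genes in bins of the radiation effect (left) and the nab-paclitaxel effect (right). Blue points bin by the average effect and stay within 0.2 of 0; red points bin by the effect alone, which shares control libraries, and reach -0.70 and -0.82 in the highest bins.

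For most genes called the same way on both averages, the combination mean lay beyond both single treatments. Of 293 genes that rose on both averages, 291 had a combination mean above both single treatments, and their median observed change was 0.70 against a median sum of 0.75. Of 211 genes that fell on both averages, all 211 were below both single treatments (-0.78 observed, -0.81 summed). Of 168 genes with opposite calls, lower for radiation and higher for nab-paclitaxel, 168 lay between the single treatments, with medians of -0.05 observed and -0.06 summed. Of 71 genes with the reverse pattern 70 did (0.05 observed, 0.10 summed). These positions follow in large part from the choice of genes called on both averages. Genes that rose under each treatment alone need not show them: CYR61, CTGF and TNFSF9, described further on, had combination means below those of radiation.

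ACTB, the cytoplasmic actin often used as a reference gene, is of the opposed kind. It had 392, 399 and 419 FPKM in the combination, 300.0, 292 and 296 FPKM in radiation, 615, 525 and 506 FPKM in nab-paclitaxel and 401, 390.3 and 393 FPKM in control. The combination overlapped control, while radiation lay below both and nab-paclitaxel above both. It was at 403 FPKM observed and 410.3 FPKM expected, a difference of -0.03 ± 0.12. GAPDH, a glycolytic enzyme, was at 431 FPKM observed and 427 FPKM expected, a difference of 0.01 ± 0.15. Leaving out the 3 libraries that stood apart gave 0.07 ± 0.07 for ACTB and 0.20 ± 0.09 for GAPDH. Neither gene was level over the 4 groups by the test, with changes past the threshold under nab-paclitaxel in each.

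A multiplied and an added expectation differ most where both effects are large. In the 35 genes with both average effects at 0.5 or more, the median fold over control was 3.31 observed, 3.42 if folds multiply and 2.71 if FPKM increments add. In these 35 genes 21 combination means lay nearer the product and 14 nearer the added value. In the 52 genes with both averages at -0.5 or less the median folds were 0.246 observed, 0.286 multiplied and 0.0759 added, and 37 lay nearer the product. Of these 52 genes 15 were protein coding. For strong falls the added value can lie near or below 0, which no FPKM can go under, so nearness to the product is partly fixed in advance. For the 293 genes called as rising on both averages, whose effects were smaller, 136 lay nearer the product and 157 nearer the added value.

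Genes with the smallest p below their sum, none of them past the threshold, were headed by CYR61 and CTGF, matricellular proteins that are classic targets of the YAP and TEAD regulators, and FOS, an immediate early gene of the AP-1 family, led its list. The promoters of CTGF and FOS are printed because both genes lie far below their sums, and that of CDKN1A because it met its sum; each runs from 250 bases before to 50 after the start of transcription (RefSeq, GRCh38.p14, gene strand). Capitals mark GGAATG, the core letters bound by TEAD factors, and TGACGT, the core of a cAMP response element, searched on both strands.
CTGF, chr6:131951323-131951622, minus strand: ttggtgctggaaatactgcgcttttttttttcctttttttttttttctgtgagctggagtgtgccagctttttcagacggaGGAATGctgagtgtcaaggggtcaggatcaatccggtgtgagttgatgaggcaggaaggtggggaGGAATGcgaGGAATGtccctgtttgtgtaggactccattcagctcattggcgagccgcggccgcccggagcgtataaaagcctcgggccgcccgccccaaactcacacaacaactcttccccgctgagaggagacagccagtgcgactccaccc
FOS, chr14:75278578-75278877, plus strand: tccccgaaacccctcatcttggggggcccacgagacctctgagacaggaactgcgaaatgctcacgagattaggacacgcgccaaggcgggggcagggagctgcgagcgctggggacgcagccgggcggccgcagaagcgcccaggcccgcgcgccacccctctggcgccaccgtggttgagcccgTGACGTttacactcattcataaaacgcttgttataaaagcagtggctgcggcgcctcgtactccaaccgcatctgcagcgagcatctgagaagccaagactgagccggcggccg
CDKN1A, chr6:36678464-36678763, plus strand: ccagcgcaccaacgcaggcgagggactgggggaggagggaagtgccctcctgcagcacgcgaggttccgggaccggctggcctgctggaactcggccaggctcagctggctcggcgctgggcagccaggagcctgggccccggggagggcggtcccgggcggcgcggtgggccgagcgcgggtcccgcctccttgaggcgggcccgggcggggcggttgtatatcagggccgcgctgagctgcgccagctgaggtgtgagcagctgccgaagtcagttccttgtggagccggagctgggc
The CTGF window held GGAATG 3 times, with first bases at -169, -104 and -95 counted from the start of transcription, and the FOS window held 1 TGACGT, at -64. The CDKN1A window held neither. GGAATG was found in 14.0% and TGACGT in 8.32% of the 27305 promoters of that table. TGACGT was found in 7 of the 20 tested AP-1 and immediate early genes whose promoter was listed, against 11.9% of the 9201 tested genes matched by symbol. GGAATG was found in 3 of the 15 listed promoters of EGF receptor ligands and YAP targets, against 10.4% of those 9201. These matches describe letters in a window and nothing more.

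CYR61 (chr1:85580761-85583962) had 14.0, 11.1 and 13.7 FPKM in the combination, 15.6, 18.1 and 17.2 FPKM in radiation, 11.2, 14.3 and 13.1 FPKM in nab-paclitaxel and 8.26, 9.47 and 9.54 FPKM in control. The combination libraries overlapped nab-paclitaxel, lay below all radiation libraries and above all controls. Radiation raised it (0.83 ± 0.11, adjusted p = 0.00213), as did nab-paclitaxel (0.45 ± 0.11, adjusted p = 0.0325). It was at 12.9 FPKM observed and 23.6 FPKM expected, a difference of -0.82 ± 0.16, with a 95% interval of -1.17 to -0.47 and an unadjusted p of 2.77e-04. CTGF (chr6:131948176-131951373) showed the same order, with 15.5, 14.4 and 15.9 FPKM in the combination, 19.4, 20.3 and 17.7 FPKM in radiation, 17.2, 13.2 and 13.4 FPKM in nab-paclitaxel and 9.42, 11.4 and 10.2 FPKM in control. It was at 15.3 FPKM observed and 26.5 FPKM expected, a difference of -0.76 ± 0.15 (interval -1.10 to -0.42, unadjusted p = 3.91e-04). Without the 3 libraries that stood apart the differences were -0.84 ± 0.12 for CYR61 and -0.67 ± 0.10 for CTGF (adjusted p = 0.141 for each).

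FOS (chr14:75278774-75282230) had 11.9977, 9.91 and 10.1 FPKM in the combination, 9.72, 10.8 and 10.1 FPKM in radiation, 10.5, 10.8 and 10.8 FPKM in nab-paclitaxel and 6.34, 4.73 and 7.05 FPKM in control. All 3 treated groups overlapped each other and lay above every control library. It was at 10.6 FPKM observed and 17.8 FPKM expected, a difference of -0.69 ± 0.17 (unadjusted p = 0.00148). TNFSF9, the ligand of the co-stimulatory receptor 4-1BB (chr19:6530999-6535928), had 55.3, 51.7 and 56.4 FPKM in the combination, 62.0, 63.3 and 60.1 FPKM in radiation, 45.3, 41.3 and 41.0 FPKM in nab-paclitaxel and 34.6, 28.6 and 33.3 FPKM in control. Its combination libraries lay between radiation and nab-paclitaxel, with no overlap, and it was at 54.4 FPKM observed and 81.5 FPKM expected, a difference of -0.57 ± 0.12. EFNB2, a membrane ligand of Eph receptors, was at 10.4 FPKM observed and 14.5 FPKM expected, a difference of -0.45 ± 0.10, GLA, a lysosomal galactosidase, at 6.46 FPKM observed and 9.91 FPKM expected, a difference of -0.55 ± 0.12, and GEM, a small GTPase, at 9.65 FPKM observed and 13.4 FPKM expected, a difference of -0.43 ± 0.10.

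KRTAP2-3, a hair keratin-associated protein (chr17:41059240-41060114), had the largest rise by the 2 FPKM floor (2.21 ± 0.13, adjusted p = 2.81e-06). It had 29.3, 31.5 and 31.4 FPKM in the combination, 21.1, 20.1 and 21.6 FPKM in radiation, 21.1, 15.9 and 13.4 FPKM in nab-paclitaxel and 5.38, 6.18 and 6.05 FPKM in control, so that the combination libraries lay above all others. It was still short of its sum (30.7 FPKM observed and 54.9 FPKM expected, a difference of -0.82 ± 0.18). Its near-identical copy KRTAP2-4 could share its reads, and the summed FPKM of the pair gave a difference of -0.83. The rest of the 10 smallest p below the sum were the pseudogene GPX1P1 (-1.24 ± 0.27), the small RNA RF00019 (-1.84 ± 0.41) and FAM209A (-0.60 ± 0.14). In all 10 genes the 3 combination libraries lay below expectation.

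**Figure D3:**
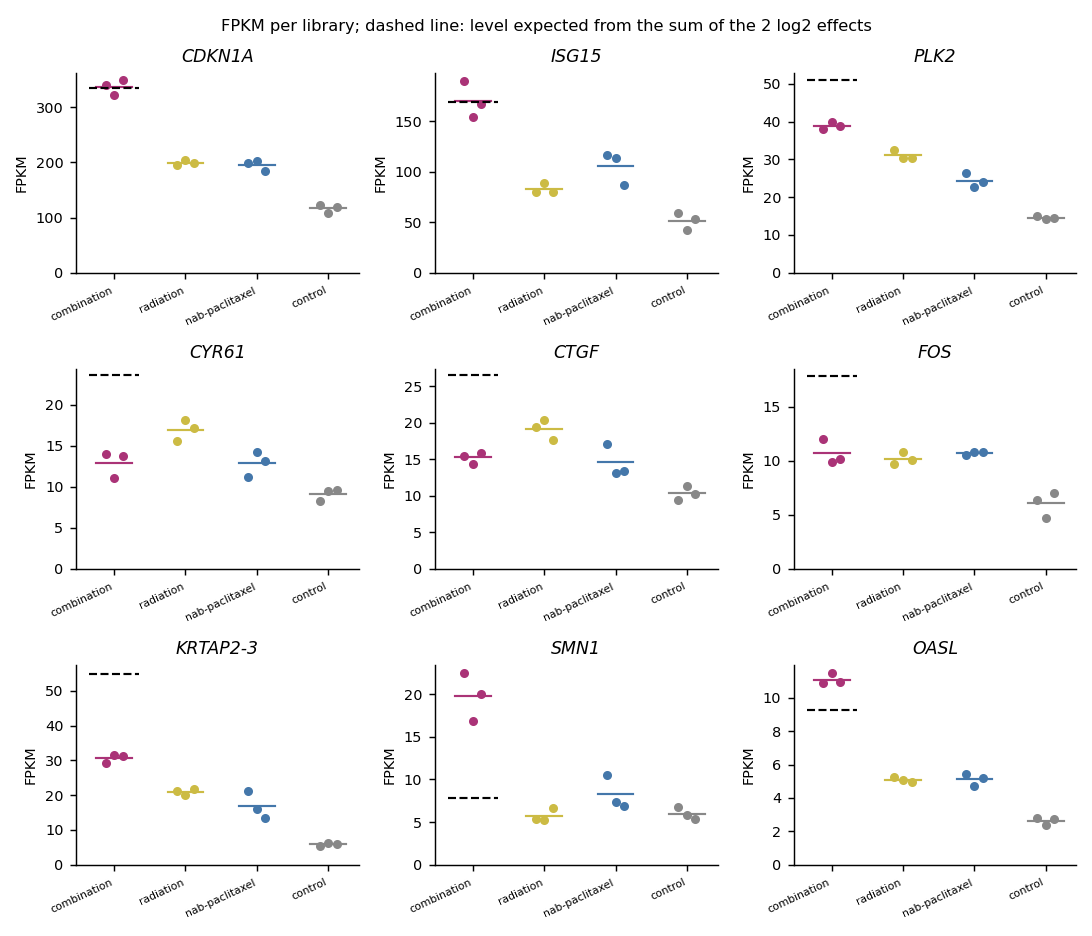
FPKM (linear axis from 0) of 9 genes in each of 3 libraries per group, combination left and control right, with the group mean as a coloured bar and the level expected from the sum as a dashed line over the combination. CDKN1A and ISG15 sit on their dashed line; PLK2, CYR61, CTGF, FOS and KRTAP2-3 lie below it, and SMN1 and OASL above it.

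Above the sum the smallest p belonged to SMN1, which encodes a factor of spliceosomal particle assembly (chr5:70925030-70953942). It had 22.6, 16.9 and 20.1 FPKM in the combination, 5.36, 5.22 and 6.65 FPKM in radiation, 10.5, 7.34 and 6.89 FPKM in nab-paclitaxel and 6.77, 5.87 and 5.32 FPKM in control. The combination libraries lay far above all others, and neither treatment alone passed the threshold against control (-0.05 ± 0.16, adjusted p = 0.909 for radiation and 0.39 ± 0.16, adjusted p = 0.135 for nab-paclitaxel). It was at 19.7 FPKM observed and 7.80 FPKM expected, a difference of 1.23 ± 0.22 (interval 0.75 to 1.72, unadjusted p = 1.40e-04, adjusted p = 0.989), and at 1.52 ± 0.17 without the 3 libraries. SMN1 has the near-identical copy SMN2, and how reads were shared between them is not given in the sources used here, so its value is uncertain. SMN2 stood at 3.98, 4.72 and 4.91 FPKM in the combination and at 4.42, 4.89 and 4.33 FPKM in control, and the pair summed gave a difference of 0.97.

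GPR15, a chemoattractant receptor known from T cells (chr3:98531899-98533150), was the other protein-coding gene among the 10 smallest p above the sum. It had 6.23, 7.14 and 7.95 FPKM in the combination, 4.50, 4.20 and 3.71 FPKM in radiation, 6.85, 6.20 and 8.34 FPKM in nab-paclitaxel and 8.62, 6.81 and 6.82 FPKM in control. Radiation alone lowered it (-0.71 ± 0.12, adjusted p = 0.00749), and the combination libraries overlapped nab-paclitaxel and control. It was at 7.08 FPKM observed and 3.95 FPKM expected, a difference of 0.71 ± 0.18. The remaining 8 were non-coding RNAs or pseudogenes, among them the long non-coding RNA AP005233.2 (10.2 FPKM observed and 5.28 FPKM expected, a difference of 0.84 ± 0.22) and the pseudogene AK4P3 (3.59 FPKM observed and 1.73 FPKM expected, a difference of 0.75 ± 0.19). For 6 of them the expectation was 0.327 FPKM or less, and for 2 of these it was below 0. Whether reads were counted by strand is not given in the sources used here, so antisense and overlapping genes are uncertain.

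By gene class, p53 targets lay close to the sum. Of 38 tested members 27 rose and 2 fell under the combination, against 12.2% and 10.6% of all genes, with a median of 0.56 observed, 0.60 summed and -0.03 for the difference (-0.002 over all genes). The difference was above 0 in 17 and below 0 in 21, and its median was 0.04 without the 3 libraries that stood apart. PLK2, a polo-like kinase, had the smallest p of the list and 38.0, 39.8 and 38.8 FPKM in the combination, 32.6, 30.3 and 30.3 FPKM in radiation, 26.3, 22.6 and 23.9 FPKM in nab-paclitaxel and 15.1, 14.2 and 14.4 FPKM in control. It went further than either treatment alone with no overlap, but it was at 38.9 FPKM observed and 50.9 FPKM expected, a difference of -0.38 ± 0.11 (unadjusted p = 0.00370). MDM2, the ubiquitin ligase of p53, did not pass under any treatment and was at 13.1 FPKM observed and 13.4 FPKM expected, a difference of -0.03 ± 0.17, and the stress cytokine GDF15 was at 808 FPKM observed and 910.4 FPKM expected, a difference of -0.17 ± 0.17. Leaving out the 3 libraries gave -0.24 ± 0.07 for MDM2 and 0.06 ± 0.10 for GDF15.

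Genes of the cell cycle also lay close to the sum, with radiation and nab-paclitaxel acting in opposite directions on many of them. Of 47 DNA replication genes 3 rose and 25 fell under the combination, against 12.2% and 10.6% of all genes, with a median of -0.44 observed, -0.37 summed and -0.04 for the difference, which turned to 0.004 under quantile scaling. Of 47 mitotic genes 43 fell on the average radiation effect (8.41% of all genes fell) and 25 rose on the average nab-paclitaxel effect (15.5% rose). Their combination medians were -0.33 observed and -0.40 summed, and 0 had an unadjusted p under 0.05 by limma in either direction (3.26% of all genes). Their median difference of 0.06 was -0.01 without control 2 or without nab-paclitaxel 2 and -0.08 on a linear FPKM scale, and that of the replication genes was 0.01 without control 3. CENPF, a kinetochore protein, was at 4.42 FPKM observed and 3.53 FPKM expected, a difference of 0.26 ± 0.15, and CCNB2, a mitotic cyclin, at 6.78 FPKM observed and 5.54 FPKM expected, a difference of 0.25 ± 0.14. Of 27 homologous recombination and Fanconi genes 12 fell (10.6% of all genes fell), with a median difference of 0.08, which was 0.01 without nab-paclitaxel 2 and 0.04 without the 3 libraries.

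Tubulins, whose polymer is the drug's target, rose mainly with nab-paclitaxel. Of 10 alpha- and beta-tubulin genes 9 rose on the average nab-paclitaxel effect (15.5% of all genes) and 7 under the combination (12.2%), with medians of 0.63 observed, 0.79 summed and -0.12 for the difference. TUBB2A was at 19.0 FPKM observed and 22.4 FPKM expected, a difference of -0.23 ± 0.24, and TUBA4A had 14.2, 14.97 and 14.6 FPKM in the combination, 10.9, 9.58 and 10.1 FPKM in radiation, 15.5, 11.3 and 11.6 FPKM in nab-paclitaxel and 6.51, 6.71 and 6.60 FPKM in control. In TUBA4A the combination overlapped nab-paclitaxel only, and it was at 14.6 FPKM observed and 19.1 FPKM expected, a difference of -0.36 ± 0.15. Without the 3 libraries that stood apart the list's median difference was 0.03, without control 2 alone it was -0.01, and with no filter on low values it was -0.02.

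Replication-dependent histones, which package new DNA, had values below the sum in nearly every tested member. Of 33 listed genes 19 lay under a mean of 1 FPKM and were not tested. Of 14 tested genes 12 rose and 1 fell under the combination, against 12.2% and 10.6% of all genes, with medians of 0.80 observed, 0.98 summed and -0.29 for the difference, and 13 of 14 differences were below 0 (50.5% of all genes). The mean over members gave -0.27 ± 0.06 over libraries, and 4 of 14 had an unadjusted p under 0.05 below the sum (1.88% of all genes). HIST1H2BD had 59.3, 55.0 and 54.2 FPKM in the combination, 52.5, 52.2 and 53.2 FPKM in radiation, 36.5, 31.6 and 32.9 FPKM in nab-paclitaxel and 25.9, 21.2 and 23.2 FPKM in control. The combination lay above all other groups, radiation included, but by little, and it was at 56.1 FPKM observed and 75.1 FPKM expected, a difference of -0.41 ± 0.12. HIST1H1C, a linker histone, was at 62.9 FPKM observed and 86.5 FPKM expected, a difference of -0.45 ± 0.16. The median was -0.22 without the 3 libraries and -0.18 on a linear FPKM scale. Histone genes share near-identical sequence, so single members are uncertain.

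AP-1 and immediate early genes, which answer growth signals and stress within minutes, had values below the sum in most members. Of 27 tested genes 11 rose and 6 fell under the combination, against 12.2% and 10.6% of all genes, with medians of 0.25 observed, 0.34 summed and -0.22 for the difference. It was below 0 in 20 of 27, and 9 had an unadjusted p under 0.05 below the sum and 1 above it, against 1.88% and 1.37% of all genes. JUN, a partner of FOS, had 46.7, 34.2 and 44.6 FPKM in the combination, 45.2, 46.5 and 46.1 FPKM in radiation, 35.9, 46.0 and 36.7 FPKM in nab-paclitaxel and 29.8, 24.3 and 31.7 FPKM in control. Its treated groups overlapped each other, and it was at 41.5 FPKM observed and 63.2 FPKM expected, a difference of -0.60 ± 0.19. EGR2, a zinc finger factor, was at 2.21 FPKM observed and 3.70 FPKM expected, a difference of -0.55 ± 0.15, the phosphatase DUSP1 at 15.1 FPKM observed and 19.9 FPKM expected, a difference of -0.38 ± 0.11 and the stress factor ATF3 at 34.1 FPKM observed and 41.4 FPKM expected, a difference of -0.27 ± 0.10. KLF2 differed in kind, with 13.1 FPKM in the combination and 18.7 FPKM expected (-0.49 ± 0.13), while it fell under the combination (-0.50 ± 0.09, adjusted p = 0.00280) and neither treatment alone passed the threshold. Without the 3 libraries the list's median was -0.08 (-0.12 without control 2 alone), with 8 members below and 5 above at an unadjusted p under 0.05, against 4.65% and 5.23% of all genes in that fit. It was -0.13 on a linear FPKM scale.

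The list of EGF receptor ligands and YAP targets holds CYR61 and CTGF, with the other members to both sides of the sum. Of 19 genes 10 lay above the sum and 9 below, with a median of 0.04 and a mean over members of -0.05 ± 0.03. Below the sum 3 and above it 0 had an unadjusted p under 0.05, against 1.88% and 1.37% of all genes. Without the 3 libraries the median was -0.06, with 6 below and 1 above at that p, against 4.65% and 5.23% of all genes in that fit. HBEGF, a ligand of the EGF receptor, was at 6.47 FPKM observed and 8.46 FPKM expected, a difference of -0.34 ± 0.11, and the ligand EREG at 13.7 FPKM observed and 10.1 FPKM expected, a difference of 0.41 ± 0.22. For EREG it was 0.19 ± 0.11 without the 3 libraries. The remaining 15 ran from -0.24 (LATS2) to 0.35 (ERBB3).

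Interferon-stimulated genes, which carry the antiviral response, had values above the sum in most members. Of 28 tested genes 19 rose and 0 fell under the combination, against 12.2% and 10.6% of all genes, with medians of 0.57 observed, 0.39 summed and 0.12 for the difference, above 0 in 21 of 28. The mean over members gave 0.13 ± 0.06. At an unadjusted p under 0.05, 3 lay above the sum and 0 below, against 1.37% and 1.88% of all genes. In the fit without the 3 libraries 10 lay above and 0 below, against 5.23% and 4.65%. The median was 0.20 without the 3 libraries and 0.18 on a linear FPKM scale, but 0.04 with no filter on low values and 0.04 with a mean of at least 5 FPKM, 2 settings that change which members are tested. OASL, an antiviral factor (chr12:121019111-121039242), had 10.9, 11.5 and 10.9 FPKM in the combination, 5.28, 5.06 and 4.93 FPKM in radiation, 5.44, 4.73 and 5.20 FPKM in nab-paclitaxel and 2.77, 2.37 and 2.73 FPKM in control. The combination lay above all other libraries, and it was at 11.1 FPKM observed and 9.29 FPKM expected, a difference of 0.23 ± 0.11 (unadjusted p = 0.0517). The ubiquitin ligase DTX3L had 7.50, 10.5 and 9.32 FPKM in the combination, 5.83, 5.30 and 5.38 FPKM in radiation, 6.28, 6.67 and 7.37 FPKM in nab-paclitaxel and 5.40, 6.22 and 5.57 FPKM in control, with the combination above every other library. It was at 9.03 FPKM observed and 6.502 FPKM expected, a difference of 0.42 ± 0.15, and its partner PARP9 at 4.44 FPKM observed and 3.34 FPKM expected, a difference of 0.33 ± 0.12. Leaving out the 3 libraries gave 0.22 ± 0.13 for DTX3L and 0.30 ± 0.09 for OASL.

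Among stress pathways that fell, most members of one lay above the sum and most of the other below it. Of 41 genes of the ATF4 and amino acid response 36 fell and 2 rose under the combination, against 10.6% and 12.2% of all genes, with medians of -0.56 observed and -0.68 summed. Their difference had a median of 0.12, or 0.07 without control 3, and was above 0 in 30 of 41. At an unadjusted p under 0.05, 1 lay above the sum and 0 below, against 1.37% and 1.88% of all genes. In the fit without the 3 libraries the median was 0.14, with 13 above and 0 below, against 5.23% and 4.65%. STC2, a secreted glycoprotein, was at 16.99 FPKM observed and 12.9 FPKM expected, a difference of 0.38 ± 0.15. Of 34 genes of the unfolded protein response and its chaperones 21 fell and 1 rose, against the same shares, with medians of -0.52 observed and -0.45 summed. Their median difference of -0.07 was -0.01 on a linear FPKM scale, and 24 of 34 differences were below 0. At that unadjusted p 0 lay above the sum and 2 below. In the fit without the 3 libraries it was 0 above and 7 below, with a median of -0.09. PDIA4, a disulfide isomerase of the endoplasmic reticulum, had 353, 330.1 and 372 FPKM in the combination, 548, 558 and 555 FPKM in radiation, 633, 651 and 629 FPKM in nab-paclitaxel and 830.2, 722 and 796 FPKM in control. Every combination library lay below every other, and it was at 351 FPKM observed and 452 FPKM expected, a difference of -0.36 ± 0.11. HYOU1, a chaperone, was at 53.7 FPKM observed and 62.4 FPKM expected, a difference of -0.21 ± 0.23.

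Heat shock genes had medians of 0.25 observed, 0.41 summed and -0.10 for the difference (-0.004 without nab-paclitaxel 1 and -0.03 without the 3 libraries), with 6 of 18 rising under the combination (12.2% of all genes). HSPA1B, an inducible chaperone, was at 20.1 FPKM observed and 30.7 FPKM expected, a difference of -0.59 ± 0.17, and its near-identical copy HSPA1A leaves it uncertain (-0.60 for the summed pair). Proteasome genes rose on the average nab-paclitaxel effect in 23 of 29 cases (15.5% of all genes) and had a median of 0.32 observed and 0.32 summed, and PSMB3 was at 89.0 FPKM observed and 89.2 FPKM expected, a difference of -0.00 ± 0.16. Nuclear-encoded respiratory chain genes had 0.38 observed and 0.43 summed. Without the 3 libraries the median difference was 0.15 for the proteasome and 0.12 for the respiratory chain. Cytosolic ribosomal proteins had a median difference of -0.01, but 0.20 without the 3 libraries, where 21 of 77 had an unadjusted p under 0.05 above the sum, against 5.23% of all genes in that fit. Their mean over members had a standard error of 0.14 over all 12 libraries. Among efflux pumps that can carry taxanes or their conjugates, ABCC2 was at 13.2 FPKM observed and 10.3 FPKM expected, a difference of 0.34 ± 0.10 and ABCC3 at 10.4 FPKM observed and 7.69 FPKM expected, a difference of 0.39 ± 0.15. Both are in the list of paclitaxel transport and metabolism, of which 7 of 16 genes were tested. Differences in that list ran from -0.28 to 0.39, with 5 above 0 and 2 below. Its median was 0.08, but -0.05 without nab-paclitaxel 1. In that list and the remaining lists with at least 5 tested genes the median difference lay between -0.14 and 0.08, and between -0.03 and 0.12 without the 3 libraries.

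**Figure D4:**
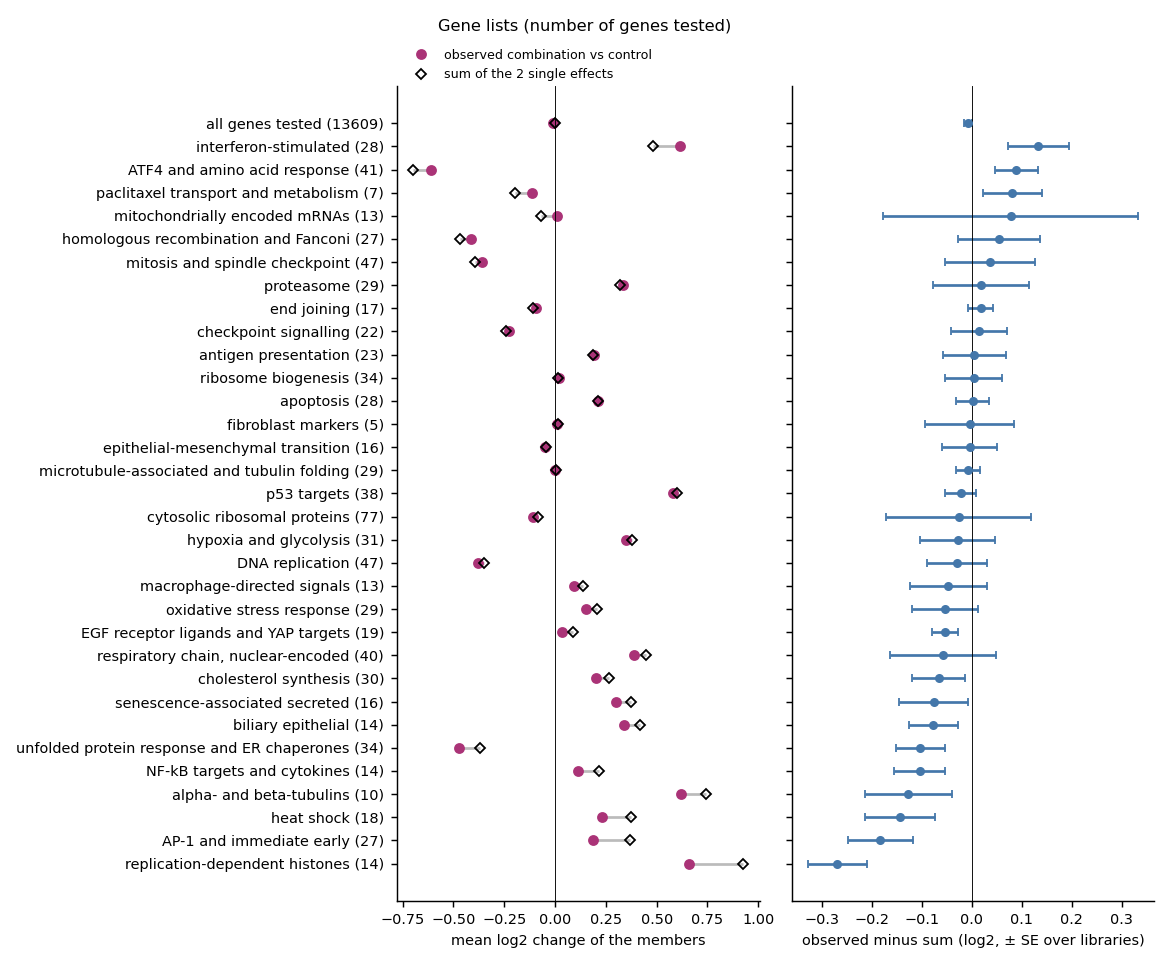
Left, mean log2 change of the tested members of each list under the combination against control (filled circles) and the sum of the single effects (open diamonds); right, observed minus sum with its standard error over 12 libraries. Histones (-0.27) and AP-1 and immediate early genes (-0.18) lie lowest, interferon-stimulated genes (0.13) highest, and the mean of all genes is -0.01.

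The variance between group means can be split without overlap into radiation, nab-paclitaxel and their departure from the sum. Over all genes the mean squares were 0.156 for radiation, 0.221 for nab-paclitaxel and 0.0416 for the departure, against 0.0516 between replicates, so that the departure was 0.806 of the replicate spread. It was 0.479 of that spread in p53 targets, 0.582 in DNA replication, 0.373 in mitosis and 0.243 in the proteasome. It was 4.49 in AP-1 and immediate early genes, 3.98 in EGF receptor ligands and YAP targets, 2.80 in histones, 2.64 in the 7 genes of paclitaxel transport and metabolism, 2.14 in senescence-associated secreted genes, 1.65 in tubulins and 1.55 in interferon-stimulated genes. In each of these 7 lists the mean square of radiation and that of nab-paclitaxel were larger than that of the departure. Mean squares weigh large departures most, and the EGF receptor ligand and YAP target list holds CYR61 (-0.82) and CTGF (-0.76). Its median difference was 0.04. Heat shock (1.48), epithelial-mesenchymal transition (1.46), the unfolded protein response (1.21) and hypoxia and glycolysis (1.17) also lay above 1. Genes of a list vary together and the libraries are the same, so no test is attached to these ratios.

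**Figure D5:**
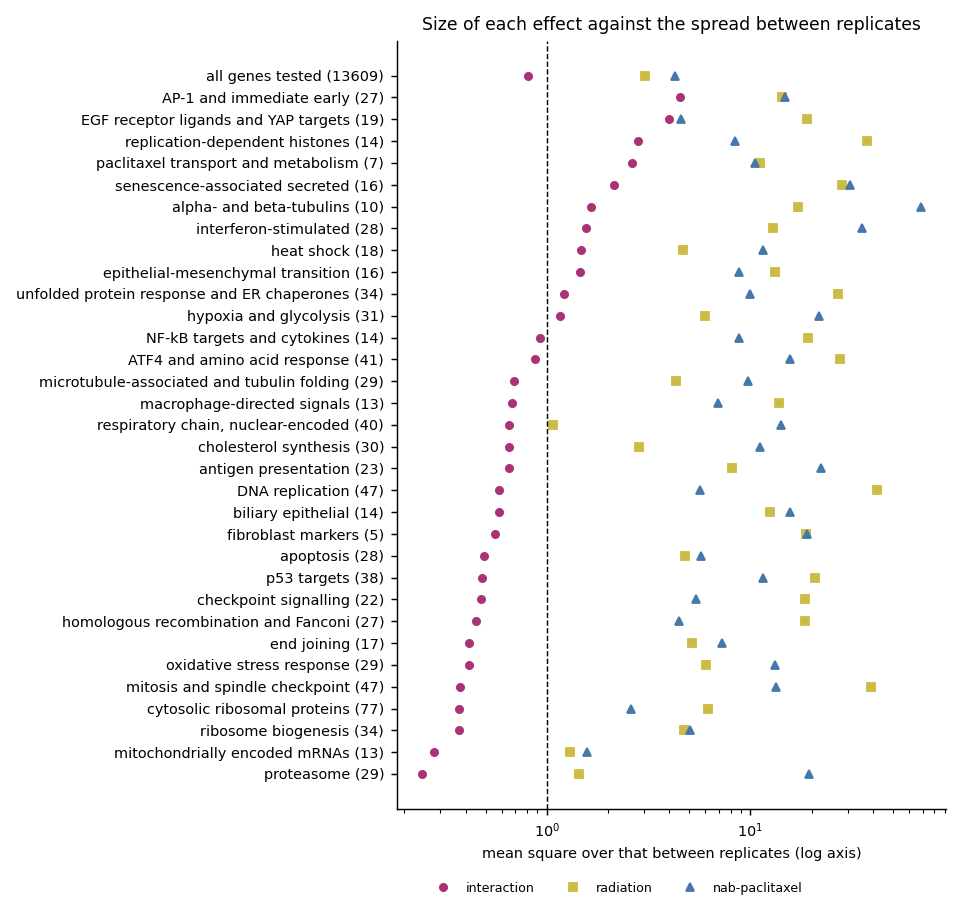
Mean square of radiation, nab-paclitaxel and the departure from their sum (marked interaction), each divided by the mean square between replicates (log axis, dashed line at 1), per gene list. Over all genes the departure lies at 0.806, and it is highest in AP-1 and immediate early genes at 4.49.

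Precision differed by kind of RNA. The 11227 protein-coding genes had a median standard error of 0.168 and a median difference of -0.003. In small RNAs the median standard error was 0.751 for 99 miRNAs, 0.644 for 106 small nuclear RNAs and 0.605 for 82 small nucleolar RNAs, and 0% of their intervals lay within 0.5. By level, the median standard error was 0.199 for genes at 1 to 3 FPKM and 0.174 for those at 100 FPKM or more, and the median difference stayed between -0.01 and 0.00 in all 5 level classes.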

How the data were processed

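Messenger RNA of TFK1 cells was sequenced from 12 libraries, 4 groups of 3 that the labels call biological replicates. The deposited FPKM values, per the file headers, were made by the authors per gene and library; hg38 is the build in the submitters' processing notes, and the sources used here do not name the aligner, counter or strand setting. FPKM steps gave whole fragments for 100% of values within 0.05, so depth was recovered (14840283 to 17992242 fragments); no libraries were identical.

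Genes averaging 1 FPKM or more were fitted on log2(FPKM + 1) with limma 3.58.1 (R 4.3.3), with 1 mean per group, trended empirical Bayes, 8 residual degrees of freedom and Benjamini-Hochberg adjustment over 13609 genes. A fold change on this scale understates that of low genes. Scripts were tested on simulated data. Figures and promoter searches used Python 3.11.15 with pandas 2.3.3 and matplotlib 3.10.9.

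The genes named were the 10 smallest p above and below the sum, the 5 largest rises and falls under the combination, the extremes of each average effect with a group mean of at least 2 FPKM, and from each list the smallest p and the largest combination change; CDKN1A, MDM2, GDF15, ACTB and GAPDH were added. ISG15, JUN, EGR2, DUSP1, ATF3, KLF2, HBEGF, LATS2, ERBB3, CCNB2, PARP9, HIST1H1C, HSPA1B and ABCC2 were named after their values were seen where that rule does not hold them. Analysed genes, lists and tests were chosen with earlier results of these data known.

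Same-numbered libraries of the combination and control deviated together across genes (r = 0.233, 0.543 and 0.172), and those of other group pairs did not in all 3 numbers. Alternatives were another pseudocount (0.1), other filters, scalings and a linear scale, voom on recovered fragments, a replicate block, and leaving out libraries.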

Additional observations from a re-analysis of the deposited data

How the results depend on the processing

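Observed minus sum gave 0 calls under all alternatives run except the absence of a filter. Without a filter 5 of 38818 genes were called: RF01225, RF00614, AL162311.1, DNAJC19P1 and AC104031.1, each listed at 0 in 3 groups and at a mean of 0.112 FPKM or less. With a mean of at least 5 FPKM, which tests fewer genes, 2311 genes were called for nab-paclitaxel (76.9% higher) and 2018 for combination against control. With the replicate block, which uses the pairing by number, calls were 0 for observed minus sum, 1568 for radiation, 2970 for nab-paclitaxel and 2660 for combination against control. It changed no call of observed minus sum.

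Leaving out 1 library at a time, calls were 0 to 0 for observed minus sum, 1308 to 2316 for radiation, 2435 to 3804 for nab-paclitaxel and 1964 to 3926 for combination against control. The median differences of the sets with a strong average effect were then -0.162 to -0.0386 (radiation, 0.5 or more), -0.0460 to 0.0533 (radiation, -0.5 or less), -0.0483 to 0.0688 (nab-paclitaxel, 0.5 or more) and -0.00795 to 0.143 (nab-paclitaxel, -0.5 or less). With 1 or more libraries left out the groups are unequal, so the average effects share noise with these differences. Quantile normalization gave -0.155 and 0.0784 for the radiation sets, and the linear scale 0.0976 for the higher nab-paclitaxel set. Binned by the effect alone, which shares the control libraries, the 4 sets gave -0.364, 0.168, -0.156 and 0.229. With the 3 libraries that stood apart left out, the nab-paclitaxel sets gave 0.117 and -0.0769, and calls were 3878 for radiation and 5049 for combination against control. The causes of the other shifts were not tested.

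Of 34 named genes under 24 settings, 29 of 787 values changed sign and 0 passed the threshold. TPM scaling gave -0.0138 for CDKN1A and -0.0107 for GAPDH, quantile normalization -0.0230 for CDKN1A, and voom -0.0124 for CDKN1A and -0.00854 for GAPDH. The linear scale gave 0.298 for SFN, 0.206 for ANGPTL4, 0.208 for CYP24A1, 0.333 for RF00157, 0.0635 for PDIA3P2, 0.364 for RNU7-20P and -0.0127 for GAPDH. Without the 3 libraries SFN was at 0.0756, GDF15 at 0.0608 and ACTB at 0.0742. Leaving out 1 library, CDKN1A ran from -0.0297 to 0.0668, MDM2 from -0.161 to 0.0427, ACTB from -0.0802 to 0.0590 and GAPDH from -0.0703 to 0.132. Of 768 recomputed list medians, 100 moved by more than 1 SD. Intervals were widest in small RNAs, with 0% of those of miRNAs within 0.5, and the part of depth in this was not tested.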
